A study of Mus musculus with 6 samples.

Results

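The cells described here were those of the first and middle parts of the proximal tubule (S1/S2 cells), recovered by single-cell RNA sequencing from mouse kidneys that were naive, rejecting, or tolerized. They were chosen by the unique molecular identifiers (UMIs, each standing for 1 captured transcript) of 9 genes and not by clustering. A barcode was kept if it held 500 UMIs or more, 250 genes or more, and a share of mitochondrially encoded UMIs of up to 50%. It was called an S1/S2 cell with at least 2 UMIs of Slc5a2 and Slc5a12 together, at most 1 UMI of Slc7a13, Slc22a7, and Slc22a30 together, at most 1 UMI of Havcr1, and none of Ptprc, Slc12a1, or Slc12a3. Of 49797 kept barcodes, 3633 met this rule. Of these, 714 and 563 were from naive, 484 and 256 from rejecting, and 784 and 832 from tolerized kidneys.

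The proximal tubule reclaims most of what the glomerulus filters. Its apical brush border takes up sodium with glucose, amino acids, and phosphate, and the receptors megalin and cubilin take up filtered protein, while organic ion carriers pass drugs and waste into the urine. The work is paid for by mitochondria that burn fatty acids and glutamine, and the same cells make glucose and ammonia. S1 and S2 carry out the high-capacity part of glucose uptake through Slc5a2, whereas S3, the straight part, expresses another set of carriers. Under interferon-γ, tubular cells are known to display MHC molecules, and in an allograft they are a target of rejection.

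There were 2 kidneys in each of 3 groups, with 1 library per kidney, and all were labelled male. Naive kidneys were untransplanted kidneys of C57BL/6 (B6, I-Ab) mice aged 10 to 12 weeks. Rejecting kidneys were BALB/c [I-Ad] kidneys, with an age given as 6 to 7 weeks, that had replaced both kidneys of B6 male recipients and were taken on day 15 with no tolerizing treatment. Tolerized kidneys differed from rejecting kidneys in that the recipient had received BALB/c splenocytes fixed with the cross-linker ethylenecarbodiimide (ECDI) 7 days before and 1 day after transplantation. A comparison of transplanted with naive kidneys therefore also compares strain, age, and 2 versions of the gene list (31053 genes in transplanted and 28692 in naive kidneys, 28208 shared), and these cannot be told apart. With 2 kidneys per group, p values measure only the spread between these kidneys.

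The 6 libraries did not hold S1/S2 cells of the same depth. Median UMIs per S1/S2 cell were 3906.5 and 3657 for naive, 6081.5 and 6358.5 for rejecting, and 7666 and 10839.5 for tolerized kidneys. The median share of mitochondrially encoded UMIs was 29.6% and 28.7% for naive, 18.5% and 18.3% for rejecting, and 18.4% and 27.3% for tolerized kidneys, so that the second tolerized kidney stood with the naive kidneys. Summed over S1/S2 cells, 3527444 and 2453565 UMIs were counted for naive, 3529957 and 2182460 for rejecting, and 7978582 and 12963737 for tolerized kidneys. Libraries from transplanted kidneys shared 18 to 35 barcodes with each other, and the naive libraries shared 111, at most 1.195% of the smaller library. Kept barcodes were not cleared of doublets for the main values. A preset number of barcodes with the highest Scrublet scores was marked per kidney, and 7 to 32 of these were S1/S2 cells. Scrublet's own threshold called 4 and 4 kept barcodes for naive, 127 and 151 for rejecting, and 277 and 2 for tolerized kidneys.

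Levels are given below as CPM, the UMIs summed over the S1/S2 cells of a kidney and scaled to a common library size after TMM normalization, with both kidneys of a group in replicate order. The genes that chose the cells are given as levels only. Slc5a2, the low-affinity glucose carrier SGLT2, was at 723 and 786 CPM in the naive pair, 634 and 510.3 CPM in the rejecting pair, and 509 and 802 CPM in the tolerized pair. Slc5a12, a lactate carrier of the same membrane, was at 408 and 290.3 CPM in the naive pair, 274 and 344 CPM in the rejecting pair, and 385 and 414 CPM in the tolerized pair. The S3 carrier Slc22a30, which the rule capped, was at 66.6 and 69.4 CPM for naive, 12.6 and 7.96 CPM for rejecting, and 11.6 and 7.21 CPM for tolerized kidneys. Havcr1 (KIM-1), the injury receptor that the rule also capped, was between 0 and 6.36 CPM.

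The label held against Slc34a1 and Lrp2, markers that the rule did not use. Slc34a1, the main phosphate carrier of the proximal tubule, was at 3989 and 3876 CPM in the naive pair, 2593 and 2566 CPM in the rejecting pair, and 3294 and 3625 CPM in the tolerized pair. With each cell thinned to 1000 UMIs, at least 89.0% of S1/S2 cells in every kidney had a Slc34a1 UMI, against 2.76% to 35.1% of all cells with a Ptprc UMI thinned alike, with the highest background in naive kidneys. Lrp2, the endocytic receptor megalin, was at 892 and 839 CPM in the naive pair, 1098 and 929.5 CPM in the rejecting pair, and 980.1 and 1134 CPM in the tolerized pair. Cells at the limit of the rule were also proximal. With exactly 2 UMIs of Slc5a2 and Slc5a12, cells had 16.8 to 26.2 Slc34a1 UMIs per 10000 in the 6 kidneys, and cells with 1 such UMI, just outside, had 7.66 to 24.5, lowest in the second tolerized kidney. Umod, a gene of the thick ascending limb, was at 1.97 UMIs per 10000 just inside the rule in the second tolerized kidney. The other kidneys had 0.421 to 0.664. In thinned S1/S2 cells Umod was found in 10.5% in that kidney and 3.08% to 4.80% elsewhere. For all cells with a Ptprc UMI thinned alike, these shares were 18.7% and 4.24% to 15.3%. Y-linked Ddx3y was at 33.6 to 55.4 CPM and Xist at 0.477 CPM or less in each kidney, as for male cells.

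The first comparison asked how many S1/S2 cells each kidney yielded. S1/S2 cells were 9.89% and 9.29% of kept cells for naive, 4.12% and 3.17% for rejecting, and 7.98% and 12.1% for tolerized kidneys. The rejecting kidneys lay below all others, and the tolerized kidneys lay on both sides of the naive ones. With at most 20% mitochondrial UMIs both tolerized kidneys lay below both naive ones (means of 5.65% and 7.65%), and under a stricter rule of at least 3 UMIs of Slc5a2 and Slc5a12 with none of Havcr1 or the S3 genes they lay above (7.13% and 3.75%). The 20% limit took the difference between tolerized and rejecting kidneys from 6.39 to 2.96 percentage points. Rejecting kidneys had a mean of 3.65% ± 0.675 (SD, n = 2) against 10.0% ± 2.91 in tolerized and 9.59% ± 0.419 in naive kidneys. Under the stricter rule the mean of rejecting kidneys was 2.21%. Their difference from naive kidneys went from -5.94 to -1.54 percentage points under that rule, and to -2.43 with each cell thinned to 1000 UMIs. An exact permutation test of 2 against 2 kidneys cannot go below p = 0.3333, which tolerized against rejecting and rejecting against naive both reached (two-sided). These shares depend on how many other cells a kidney held, and Ptprc+ cells, those with a Ptprc UMI and none of Slc5a2 or Slc5a12, numbered 164 and 167 for naive, 6364 and 5430 for rejecting, and 4278 and 1779 for tolerized kidneys.

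Within the proximal tubule the ratio of S1/S2 to S3 cells, as called by the rules, differed as well. S3 cells, chosen by the carriers that the S1/S2 rule capped, numbered 1851 and 1327 for naive, 542 and 239 for rejecting, and 984 and 355 for tolerized kidneys. Per S3 cell there were 0.386 and 0.424 S1/S2 cells for naive, 0.893 and 1.07 for rejecting, and 0.797 and 2.34 for tolerized kidneys, so that naive kidneys lay below all transplanted ones. Depth enters both rules, and thinning each cell to 1000 UMIs gave shares of 4.40% and 3.73% for naive, 2.24% and 1.04% for rejecting, and 2.81% and 6.73% for tolerized kidneys. That step left out 2715 and 575 shallower cells of the rejecting kidneys, 419 and 522 of the tolerized kidneys, and none of the naive ones. The thinned shares are of S1/S2 cells only, and the ratio to S3 cells was not recomputed. The part of depth in that ratio was not tested.

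**Figure D1:**
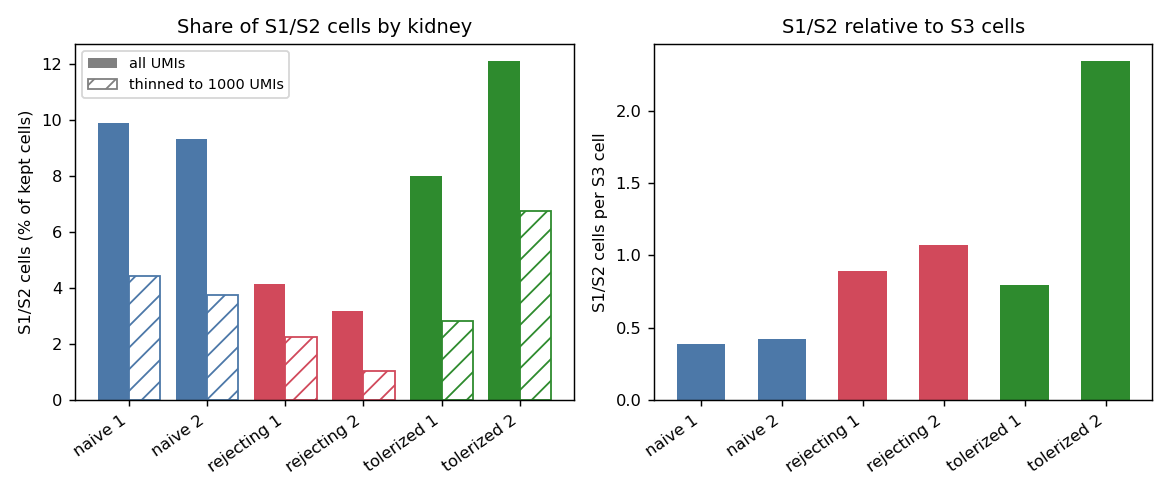
S1/S2 cells as a percentage of kept cells in each kidney (left, filled bars with all UMIs and hatched bars after thinning each cell to 1000 UMIs) and S1/S2 cells per S3 cell (right). Both rejecting kidneys, at 4.12% and 3.17%, are below the naive and tolerized kidneys, and the second tolerized kidney has the highest ratio to S3 cells at 2.34.

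For gene expression, raw UMIs were summed over the S1/S2 cells of each kidney, and all 6 kidneys were fitted together with edgeR. Of 10593 genes tested, 1723 rose and 1605 fell in rejecting against naive kidneys at a false discovery rate (FDR) of 0.05 (31.4%). In tolerized against naive kidneys 1296 rose and 1243 fell (24.0%). Tolerized and rejecting kidneys differed at 6 genes (0.0566%), 1 higher (0.00944%) and 5 lower (0.0472%) in tolerized kidneys, while 1101 genes (10.4%) had an unadjusted p under 0.05. The study ran its kidneys in 2 experiments, which the labels do not tie to replicate numbers, and with the replicate number as a block in the edgeR fit 92 genes passed, these 6 among them. The number of calls rested on single kidneys. Leaving out the first naive, second naive, first rejecting, or second tolerized kidney left 0 genes between tolerized and rejecting kidneys, and leaving out the second rejecting or the first tolerized kidney gave 77 and 193. Without the first or the second naive kidney, 1852 and 1629 genes passed in rejecting against naive kidneys and 1242 and 931 in tolerized against naive kidneys, and 1985 passed in rejecting against naive kidneys without the first rejecting kidney. When each cell was thinned to 1000 UMIs, 725 genes passed in rejecting against naive and 691 in tolerized against naive kidneys. The lists below were compiled from known functions. For each, the members that passed are set beside the share of all genes tested that passed in the same direction: 16.3% rose and 15.2% fell in rejecting against naive kidneys, and 12.2% rose and 11.7% fell in tolerized against naive kidneys.

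Among the 23 apical carriers and their partners tested (list apical solute transport), 6 rose and 3 fell in rejecting kidneys against naive kidneys, and 3 rose and 1 fell in tolerized kidneys. The median change was -0.02 and -0.03, against 0.05 and 0.03 over all genes. The member that fell in tolerized kidneys was Slc15a2 (-0.93 on the log2 scale). Its call was lost without the first naive or the second tolerized kidney, at -0.85 and -0.80. Slc6a19, the carrier of neutral amino acids, was at 524 and 484 CPM in the naive pair, 136 and 229.9 CPM in the rejecting pair, and 351 and 463 CPM in the tolerized pair. It fell by 1.47 ± 0.26 on the log2 scale (SE, edgeR FDR 0.00187) in rejecting kidneys, and tolerized kidneys lay closer to naive ones without overlap with rejecting ones, a difference of 1.16 ± 0.26 on the log2 scale (SE, edgeR FDR 0.132) that did not pass. Slc6a19 is 1 of 9 genes in the list S1 leaning, of which 8 were higher in tolerized than in rejecting kidneys (median 0.52). In the lists S2 leaning and S3 leaning, 3 of 7 and 1 of 6 were higher (medians -0.07 and -0.83). None of these passed, and the part of the mix of segments was not tested. Tmem27 (collectrin), which brings Slc6a19 to the membrane, was at 3034 and 2984 CPM in the naive pair, 1006 and 1397 CPM in the rejecting pair, and 1644 and 2053 CPM in the tolerized pair and fell by 1.33 ± 0.24 on the log2 scale (SE, edgeR FDR 0.00219) in rejecting kidneys. Slc34a1 was lower in both rejecting kidneys than elsewhere, at -0.61 ± 0.22 on the log2 scale (SE, edgeR FDR 0.0526) against naive kidneys, which did not pass. Slc9a3, the sodium-proton exchanger NHE3, was at 0.340 and 0.489 CPM in the naive pair, 42.9 and 37.0 CPM in the rejecting pair, and 33.1 and 44.8 CPM in the tolerized pair. Its rise of 6.56 and 6.52 on the log2 scale in rejecting and tolerized against naive kidneys separated all transplanted from all naive kidneys, a split shared by strain, age, and gene list. Without the second naive kidney, 2 apical carriers rose and 3 fell in rejecting kidneys, and without the first rejecting kidney 2 rose and 2 fell.

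The basolateral carriers pass solutes on to the blood. Of 15 members tested in the list basolateral transport, 8 rose and 1 fell in tolerized against naive kidneys, with a median of 0.67 on the log2 scale, and 2 rose and 2 fell in rejecting against naive kidneys, with a median of 0.02. Slc7a7, a subunit of the exit path for cationic amino acids, was at 236 and 221 CPM in the naive pair, 267 and 379 CPM in the rejecting pair, and 442 and 541 CPM in the tolerized pair, and rose by 1.10 ± 0.22 on the log2 scale (SE, edgeR FDR 0.00462) in tolerized kidneys. Slc26a1, a sulfate exchanger, was at 108 and 81.1 CPM in the naive pair, 186 and 173 CPM in the rejecting pair, and 184 and 195 CPM in the tolerized pair and rose in both transplanted groups, by 0.92 and 1.00 on the log2 scale. The monocarboxylate carrier Slc16a1, at 85.3 and 66.9 CPM in the naive pair, 52.9 and 41.8 CPM in the rejecting pair, and 38.5 and 46.2 CPM in the tolerized pair, fell in both. Against rejecting kidneys, 13 of 15 members were higher in tolerized kidneys and none passed. The 8 rises were 2 without the first naive kidney, 0 without the second, and 3 without the second tolerized kidney. With the second naive kidney left out, edgeR gave an FDR of 0.0733 for Slc7a7 and 0.0728 for Slc26a1 in tolerized kidneys, and 0.0769 for Slc26a1 in rejecting kidneys. The call of Slc16a1 in rejecting kidneys was lost on leaving out any naive or rejecting kidney (edgeR FDR 0.0507 to 0.22), and in tolerized kidneys without the first naive (0.132) or the first tolerized kidney (0.0822).

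Of 18 carriers of organic ions tested (list organic ion transport), 2 rose and 5 fell in rejecting kidneys and 3 rose and 3 fell in tolerized kidneys against naive ones. In all, 13 were lower in rejecting and 12 in tolerized kidneys, with medians of -0.26 and -0.23. Slc22a2 (OCT2), the cation carrier of the basolateral side, was at 46.6 and 79.2 CPM in the naive pair, 179.8 and 236 CPM in the rejecting pair, and 201 and 205 CPM in the tolerized pair and rose by 1.74 ± 0.26 on the log2 scale (SE, edgeR FDR 0.000632) in rejecting kidneys and 1.71 ± 0.25 on the log2 scale (SE, edgeR FDR 0.000855) in tolerized kidneys. Slc22a8 (OAT3), an anion carrier, was at 313 and 299.5 CPM in the naive pair, 209 and 229 CPM in the rejecting pair, and 353 and 332 CPM in the tolerized pair and was lowest in the rejecting kidneys, though no comparison passed. Slco1a6, an anion carrier most abundant in S3, was at 162 and 127 CPM in the naive pair, 24.3 and 24.7 CPM in the rejecting pair, and 36.5 and 13.2 CPM in the tolerized pair and fell by 2.57 and 2.56 on the log2 scale. The rule capped S3 carriers at 1 UMI per cell, a stricter limit in the deeper cells of transplanted kidneys. Slc22a30, a capped carrier, was lower in transplanted kidneys too. The part of the cap in the fall of Slco1a6 was not tested. Without the second naive kidney, 1 and 3 members rose and fell in rejecting kidneys.

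Of 19 endocytosis genes, 2 rose and 1 fell in rejecting kidneys and 1 rose and 2 fell in tolerized kidneys. Folr1, the folate receptor, was at 407 and 419.8 CPM in the naive pair, 584 and 677 CPM in the rejecting pair, and 737 and 702 CPM in the tolerized pair and rose by 0.80 ± 0.19 on the log2 scale (SE, edgeR FDR 0.0119) in tolerized kidneys. Fcgrt, the receptor that rescues IgG and albumin, was at 117 and 137 CPM in the naive pair, 68.2 and 74.0 CPM in the rejecting pair, and 78.6 and 80.8 CPM in the tolerized pair and fell by 0.84 and 0.67 on the log2 scale in rejecting and tolerized kidneys. Of 14 brush border enzymes, 5 rose and 2 fell in rejecting kidneys and 6 rose and 2 fell in tolerized kidneys. Dpp4, a peptidase, was at 19.4 and 21.99 CPM in the naive pair, 83.5 and 88.3 CPM in the rejecting pair, and 73.7 and 93.8 CPM in the tolerized pair and rose by 2.06 ± 0.22 on the log2 scale (SE, edgeR FDR 7.08e-05) and 2.02 ± 0.21 on the log2 scale (SE, edgeR FDR 7.45e-05). Dpep1, another peptidase, was at 176 and 189.6 CPM in the naive pair, 145 and 158 CPM in the rejecting pair, and 257 and 359 CPM in the tolerized pair, rose by 0.75 ± 0.20 on the log2 scale (SE, edgeR FDR 0.0221) in tolerized kidneys, and was higher there than in rejecting kidneys by a difference that did not pass, 1.03 ± 0.21 on the log2 scale (SE, edgeR FDR 0.102). With the second naive kidney left out, edgeR gave an FDR of 0.0963 for Folr1, 0.147 for Fcgrt, and 0.124 for Dpep1 in tolerized kidneys, 0 endocytosis genes passed in either comparison, and 1 brush border enzyme rose in each. In rejecting kidneys the FDR of Fcgrt was 0.0541 on the same omission. In tolerized kidneys the calls were also lost, with the FDR in parentheses, for Folr1 without the first naive (0.091) or the first tolerized kidney (0.05), for Fcgrt on leaving out any 1 naive or tolerized kidney (0.0541 to 0.147), and for Dpep1 without the first naive (0.143) or the second tolerized kidney (0.2).

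In the list glucose and ammonia synthesis, 4 of 14 members rose and 6 fell in rejecting kidneys, and 4 rose and 1 fell in tolerized kidneys. All 14 were higher in tolerized than in rejecting kidneys, with a median of 0.32 on the log2 scale against -0.01 over all genes, and none passed. Gatm, which makes the creatine precursor guanidinoacetate, was at 3234 and 3066 CPM in the naive pair, 880.1 and 1222 CPM in the rejecting pair, and 1311 and 2544 CPM in the tolerized pair and fell by 1.58 ± 0.31 on the log2 scale (SE, edgeR FDR 0.00335) in rejecting kidneys. Sord, sorbitol dehydrogenase, was at 689 and 785 CPM in the naive pair, 228 and 362 CPM in the rejecting pair, and 479.7 and 463 CPM in the tolerized pair and fell by 1.32 ± 0.24 on the log2 scale (SE, edgeR FDR 0.00203) there. Other members of the list rose. Pcx, pyruvate carboxylase, was at 135 and 149 CPM in the naive pair, 225 and 229.9 CPM in the rejecting pair, and 299 and 309 CPM in the tolerized pair and rose by 1.10 ± 0.18 on the log2 scale (SE, edgeR FDR 0.00139) in tolerized kidneys, and Glud1, glutamate dehydrogenase, was at 206 and 178 CPM in the naive pair, 332 and 393 CPM in the rejecting pair, and 359 and 475 CPM in the tolerized pair and rose by 1.12 ± 0.21 on the log2 scale (SE, edgeR FDR 0.0035). Without the second naive kidney, 0 rose and 4 fell in rejecting kidneys, and 1 rose and 0 fell in tolerized kidneys, with an edgeR FDR of 0.0665 for Glud1.

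Of 14 glycolytic enzymes, 4 rose and 1 fell in rejecting kidneys and 3 rose and 1 fell in tolerized kidneys, and Gapdh, Tpi1, and Aldoa passed in no comparison. Ldha, lactate dehydrogenase A, was at 410.1 and 592 CPM in the naive pair, 289.7 and 316 CPM in the rejecting pair, and 297 and 273 CPM in the tolerized pair and fell by 0.73 and 0.81 on the log2 scale. Pgk1, phosphoglycerate kinase, was at 6.80 and 26.4 CPM in the naive pair, 258 and 267 CPM in the rejecting pair, and 293 and 279 CPM in the tolerized pair and rose in both transplanted groups, by 4.06 and 4.19. In the list fatty acid oxidation and peroxisome, 4 of 35 members rose and 11 fell in rejecting kidneys, and 3 rose and 7 fell in tolerized kidneys, with medians of -0.42 and -0.27. Cyp4b1, a fatty acid hydroxylase, was at 1175 and 953 CPM in the naive pair, 421 and 326 CPM in the rejecting pair, and 431 and 287 CPM in the tolerized pair and fell by 1.51 and 1.57 on the log2 scale. Pdk4, the kinase that holds back pyruvate oxidation, was at 4.42 and 2.44 CPM in the naive pair, 53.7 and 45.7 CPM in the rejecting pair, and 36.6 and 11.4 CPM in the tolerized pair and rose by 3.79 ± 0.59 on the log2 scale (SE, edgeR FDR 0.000869) and 2.72 ± 0.60 on the log2 scale (SE, edgeR FDR 0.00775). With the second naive kidney left out, 2 members of the fatty acid list rose and 4 fell in rejecting kidneys and 0 rose and 2 fell in tolerized kidneys, and the edgeR FDR was 0.0949 for Pdk4 and 0.201 for Ldha in tolerized kidneys. The FDR of Pdk4 there was 0.0597 without the first naive kidney. Ldha lost its call in rejecting kidneys too, without the second naive (FDR 0.223) or the first rejecting kidney (0.105), and in tolerized kidneys without the first (0.0533) or the second of them (0.0949).

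**Figure D2:**
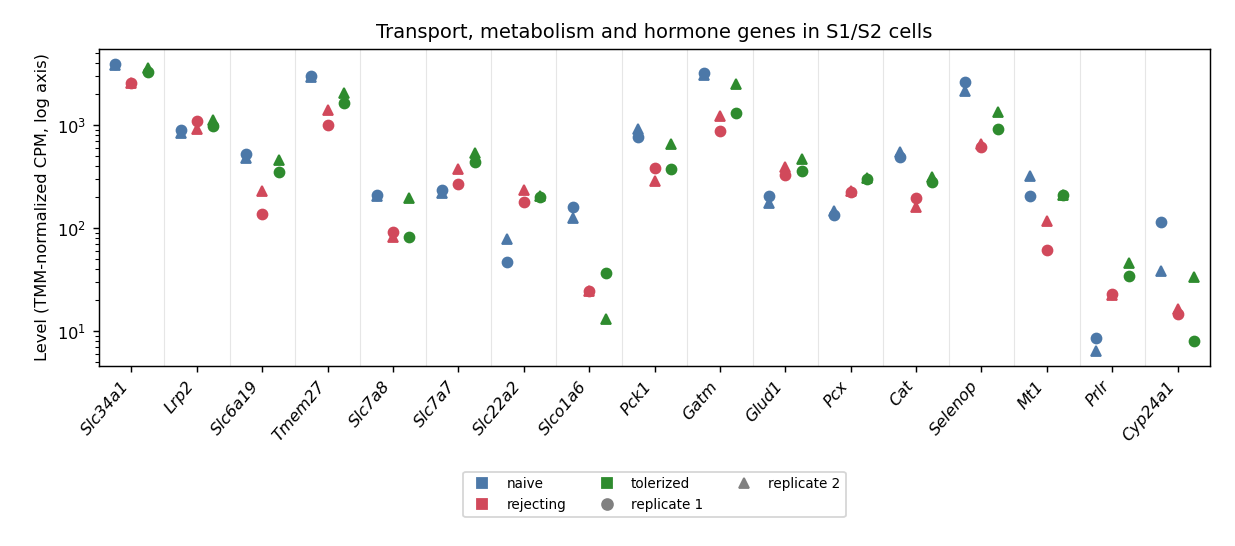
Levels of 17 transport, metabolism, and hormone genes in S1/S2 cells, in TMM-normalized CPM on a log axis, with 1 point per kidney, colored by group and shaped by replicate. Slc34a1, Slc6a19, and Gatm are lowest in the 2 rejecting kidneys, and Prlr is higher in all 4 transplanted than in the naive kidneys.

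Hormone and vitamin D genes (list vitamin D, klotho and hormone response) numbered 15 tested, of which 1 rose and 4 fell in rejecting kidneys and 1 rose and 3 fell in tolerized kidneys. Prlr, the prolactin receptor, was at 8.49 and 6.35 CPM in the naive pair, 23.1 and 22.3 CPM in the rejecting pair, and 34.0 and 45.9 CPM in the tolerized pair and rose by 1.59 ± 0.29 on the log2 scale (SE, edgeR FDR 0.00208) and 2.40 ± 0.27 on the log2 scale (SE, edgeR FDR 0.000119). Cyp24a1, which breaks down active vitamin D, was at 115 and 38.6 CPM in the naive pair, 14.8 and 16.3 CPM in the rejecting pair, and 8.10 and 33.7 CPM in the tolerized pair and fell by 2.33 and 1.88 on the log2 scale, with naive kidneys far apart from each other. Kl, the FGF23 co-receptor klotho, was at 251 and 240.4 CPM in the naive pair, 113 and 148 CPM in the rejecting pair, and 127 and 247 CPM in the tolerized pair and fell by 0.92 ± 0.28 on the log2 scale (SE, edgeR FDR 0.0304) in rejecting kidneys, and the second tolerized kidney stood at the naive level. Pth1r and Vdr, the receptors of parathyroid hormone and vitamin D, passed in no comparison. Fgfr1, another member that fell in tolerized kidneys, lost that call without the first naive kidney, where its change was -1.52 on the log2 scale. Without the first naive kidney 0 members of this list fell in rejecting kidneys (edgeR FDR 0.215 for Cyp24a1 and 0.135 for Kl), and without the second naive or the first rejecting kidney 1 fell. Cyp24a1 was also lost in rejecting kidneys without the first (FDR 0.104) or the second of them (0.0607), and in tolerized kidneys without the first naive kidney, where the difference was -0.86 on the log2 scale (0.42), or the first tolerized kidney (0.0609). Kl was lost without the second naive (0.115) or the first rejecting kidney (0.18).

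Some transport and enzyme genes of the male proximal tubule depend on androgens. In the list sex and androgen response, 7 of 12 members fell and 1 rose in rejecting kidneys, and 8 fell and 1 rose in tolerized kidneys, with medians of -1.49 and -1.07. Kap, the kidney androgen-regulated protein and the most abundant member, was at 4895 and 9364 CPM in the naive pair, 5790.1 and 7998 CPM in the rejecting pair, and 13093 and 5009 CPM in the tolerized pair. Its groups overlapped, and it differed from naive kidneys by -0.05 ± 0.43 on the log2 scale (SE, edgeR FDR 0.943) in rejecting and 0.34 ± 0.43 on the log2 scale (SE, edgeR FDR 0.6) in tolerized kidneys, which did not pass. Hsd3b2, a steroid dehydrogenase, was at 102 and 119 CPM in the naive pair, 19.8 and 26.3 CPM in the rejecting pair, and 25.7 and 34.2 CPM in the tolerized pair and fell by 2.28 ± 0.23 on the log2 scale (SE, edgeR FDR 5.94e-05) and 1.88 ± 0.22 on the log2 scale (SE, edgeR FDR 0.000147). Timd2, a ferritin receptor, was at 115 and 94.8 CPM in the naive pair, 15.02 and 19.9 CPM in the rejecting pair, and 15.4 and 4.31 CPM in the tolerized pair and fell by 2.61 and 3.45 on the log2 scale. Odc1, ornithine decarboxylase, was at 394 and 501 CPM in the naive pair, 181 and 168 CPM in the rejecting pair, and 189 and 286 CPM in the tolerized pair and fell by 1.36 and 0.91. Without the second naive kidney 5 members fell in tolerized kidneys, and the edgeR FDR of Odc1 there was 0.147. It was 0.125 without the first tolerized kidney.

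Of 19 transcription factors tested (list tubular transcription factors), 3 rose and 1 fell in rejecting kidneys and 2 rose in tolerized kidneys, with medians of -0.04 and 0.14. Hnf4a, the nuclear receptor that drives proximal genes, was at 168 and 183 CPM in the naive pair, 215 and 209.6 CPM in the rejecting pair, and 212 and 228 CPM in the tolerized pair and did not pass. Ppara, which controls fatty acid oxidation, was at 18.0 and 10.8 CPM in the naive pair, 34.6 and 46.1 CPM in the rejecting pair, and 38.5 and 34.7 CPM in the tolerized pair and rose by 1.44 ± 0.28 on the log2 scale (SE, edgeR FDR 0.00295) and 1.31 ± 0.27 on the log2 scale (SE, edgeR FDR 0.00533). Pax8, a factor of renal development, was at 40.1 and 34.7 CPM in the naive pair, 68.4 and 54.1 CPM in the rejecting pair, and 47.1 and 37.1 CPM in the tolerized pair and rose by 0.71 ± 0.22 on the log2 scale (SE, edgeR FDR 0.0293) in rejecting kidneys. Without either naive kidney in turn, 1 factor rose in rejecting kidneys, and without the second none did in tolerized kidneys (edgeR FDR 0.177 for Pax8 in rejecting and 0.0738 for Ppara in tolerized kidneys). The FDR of Pax8 was 0.0876 without the first naive and 0.176 without the first rejecting kidney.

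Antioxidant genes were among those that fell. In the list antioxidant and metal, 12 of 26 members fell and 4 rose in rejecting kidneys, and 8 fell and none rose in tolerized kidneys, with medians of -0.68 and -0.39. Selenop, which carries selenium, was at 2665 and 2173 CPM in the naive pair, 616 and 659 CPM in the rejecting pair, and 916 and 1353 CPM in the tolerized pair and fell by 1.92 ± 0.25 on the log2 scale (SE, edgeR FDR 0.000279) and 1.09 ± 0.24 on the log2 scale (SE, edgeR FDR 0.0081). Cat, catalase, was at 490.3 and 555 CPM in the naive pair, 199 and 160.3 CPM in the rejecting pair, and 279 and 317 CPM in the tolerized pair and fell by 1.54 ± 0.20 on the log2 scale (SE, edgeR FDR 0.000302) and 0.81 ± 0.20 on the log2 scale (SE, edgeR FDR 0.0125). Prdx1, a peroxiredoxin, was at 2478 and 2824 CPM in the naive pair, 782 and 925 CPM in the rejecting pair, and 1139 and 992 CPM in the tolerized pair and fell by 1.64 and 1.31 on the log2 scale. Both tolerized kidneys lay between the naive and the rejecting ones for each of these. The 8 falls in tolerized kidneys were 3 without the first naive kidney, 2 without the second, and 5 without the first tolerized one, where the edgeR FDR was 0.0605 for Selenop and 0.0877 for Cat. Without the first naive kidney the FDR was 0.077 for Selenop and 0.051 for Cat, and it was 0.109 for Cat without the second.

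Nuclear genes of the respiratory chain fell together. Of 78 subunits tested, 62 fell and none rose in rejecting kidneys, and 40 fell and none rose in tolerized kidneys, with medians of -0.96 and -0.61. Against rejecting kidneys, 76 of 78 were higher in tolerized kidneys (median 0.32), and none passed. Ndufa3, a subunit of complex I, was at 911 and 1189.9 CPM in the naive pair, 82.3 and 118 CPM in the rejecting pair, and 233 and 202 CPM in the tolerized pair and fell by 3.40 ± 0.25 on the log2 scale (SE, edgeR FDR 5.75e-06) and 2.27 ± 0.24 on the log2 scale (SE, edgeR FDR 7.3e-05). Cox6c, a subunit of complex IV, was at 3086 and 3723 CPM in the naive pair, 1442 and 1020.2 CPM in the rejecting pair, and 1627 and 1932 CPM in the tolerized pair and fell by 1.47 ± 0.25 on the log2 scale (SE, edgeR FDR 0.00144) and 0.94 ± 0.24 on the log2 scale (SE, edgeR FDR 0.0183). Cox4i1, another complex IV subunit, was at 2830.0 and 3259 CPM in the naive pair, 1705 and 1628 CPM in the rejecting pair, and 2023 and 1969 CPM in the tolerized pair and fell by 0.87 ± 0.21 on the log2 scale (SE, edgeR FDR 0.0104) in rejecting kidneys. With the second naive kidney left out, 39 fell in rejecting and 10 in tolerized kidneys, and without the first naive kidney 20 fell in tolerized kidneys. Leaving out the first or the second tolerized kidney left 21 and 23. The edgeR FDR without the second naive kidney was 0.138 for Cox6c in tolerized kidneys and 0.0769 for Cox4i1 in rejecting kidneys. Cox6c was also lost in tolerized kidneys without the first naive (FDR 0.0538) or the first tolerized kidney (0.0841).

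Of the 13 mitochondrially encoded genes, 9 were lower and 4 higher in rejecting than in naive kidneys. In tolerized kidneys 8 were lower and 5 higher, and the medians were -1.10 in rejecting and -0.17 in tolerized kidneys. mt-Nd1, a subunit of complex I, was at 35361 and 42099 CPM in the naive pair, 7357 and 7428 CPM in the rejecting pair, and 8957 and 14372 CPM in the tolerized pair. It was lower than in naive kidneys by 2.39 ± 0.31 (SE) in rejecting and 1.73 ± 0.30 (SE) in tolerized kidneys on the log2 scale. mt-Cytb, of complex III, was at 40509 and 39085 CPM in the naive pair, 11547 and 12155 CPM in the rejecting pair, and 12900.2 and 26837 CPM in the tolerized pair. It was lower by 1.75 ± 0.35 on the log2 scale (SE) in rejecting than in naive kidneys. The rule for cells capped the share of these UMIs, so no call or FDR is given for these genes. The transcripts of the respiratory chain are short, with a median length of 913 bases for the nuclear genes against 3079 over 10343 genes tested with a known length, and length moved with the change over all genes. Genes of 700 bases or less (177) had a median change of -1.08 in rejecting against naive, -0.677 in tolerized against naive, and 0.281 in tolerized against rejecting kidneys. Genes longer than 4000 bases (3513) had medians of 0.345, 0.301, and -0.0319. By range of length, the medians of chain genes and of the other genes in rejecting against naive kidneys were -1.44 (24 chain genes) and -0.946 up to 700 bases, -0.998 (19) and -0.45 from there to 1000, -0.608 (25) and -0.2 to 2000, and -0.729 (8) and 0.0483 to 4000 bases. The part of length in the change of the chain genes was not tested.

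The immune face of the S1/S2 cells differed most from naive kidneys. In the list MHC class I and peptide loading, all 20 members tested rose in rejecting kidneys and 19 rose in tolerized kidneys, with medians of 4.30 and 3.71 on the log2 scale. B2m, the light chain of class I, was at 278 and 455 CPM in the naive pair, 2230.2 and 3409 CPM in the rejecting pair, and 2177 and 3122 CPM in the tolerized pair and rose by 2.94 ± 0.33 on the log2 scale (SE, edgeR FDR 0.000102) and 2.86 ± 0.33 on the log2 scale (SE, edgeR FDR 0.000145). H2-K1, a classical class I heavy chain, was at 83.2 and 145 CPM in the naive pair, 2239.8 and 2060.0 CPM in the rejecting pair, and 1716 and 1654 CPM in the tolerized pair and rose by 4.25 ± 0.29 on the log2 scale (SE, edgeR FDR 3.32e-06) and 3.89 ± 0.29 on the log2 scale (SE, edgeR FDR 5.79e-06). Psmb8, a catalytic subunit of the immunoproteasome, was at 2.72 and 8.31 CPM in the naive pair, 895 and 891 CPM in the rejecting pair, and 645 and 560.2 CPM in the tolerized pair and rose by 7.43 and 6.87 on the log2 scale. Tap1, the pump that loads peptides, was at 2.38 and 3.91 CPM in the naive pair, 141 and 139 CPM in the rejecting pair, and 107 and 70.7 CPM in the tolerized pair. Class I heavy chains are near-identical copies that also differ between B6 and BALB/c, so that the split of UMIs among H2-D1, H2-K1, and the H2-Q genes is uncertain.

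In the list MHC class II, 8 of 9 genes rose in each transplanted group, with medians of 4.97 and 4.68. Cd74, the invariant chain, was at 33.3 and 305 CPM in the naive pair, 4577 and 5603 CPM in the rejecting pair, and 5358 and 4377 CPM in the tolerized pair and rose by 4.92 ± 0.76 on the log2 scale (SE, edgeR FDR 0.000815) and 4.86 ± 0.75 on the log2 scale (SE, edgeR FDR 0.00113). The second naive kidney stood above the first, and 225 of its 625 Cd74 UMIs were in 1 cell. H2-Aa, the class II α chain, was at 6.80 and 105 CPM in the naive pair, 1597 and 1782 CPM in the rejecting pair, and 1376 and 1155 CPM in the tolerized pair. Ciita, the master regulator of class II, was at 0.340 and 1.47 CPM in the naive pair, 132 and 102 CPM in the rejecting pair, and 74.7 and 61.3 CPM in the tolerized pair and rose by 7.15 ± 0.41 on the log2 scale (SE, edgeR FDR 7.06e-07) and 6.36 ± 0.42 on the log2 scale (SE, edgeR FDR 2.69e-06). No class II gene passed between tolerized and rejecting kidneys, and the median difference over the list was -0.30.

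Genes induced by interferon rose in step. In the list interferon response, 39 of 41 tested rose in rejecting kidneys and 36 in tolerized kidneys, and none fell. The medians were 4.96 and 4.33, or 4.31 and 3.75 when the 5 genes at 0 in both naive kidneys were set to the bound that 3 UMIs allow. Igtp, a GTPase of the immunity-related family, was at 3.74 and 14.7 CPM in the naive pair, 590.4 and 497 CPM in the rejecting pair, and 394 and 370.0 CPM in the tolerized pair and rose by 5.98 ± 0.42 on the log2 scale (SE, edgeR FDR 3.46e-06) and 5.47 ± 0.41 on the log2 scale (SE, edgeR FDR 6.3e-06), and Gbp2, a guanylate-binding protein, was at 1.02 and 0.489 CPM in the naive pair, 256 and 223 CPM in the rejecting pair, and 169 and 141 CPM in the tolerized pair. Gbp2b, of the same family, had no UMI in naive kidneys and was at 475 and 447 CPM in rejecting and 351 and 316 CPM in tolerized kidneys, at least 315-fold and 227-fold higher than the 3 UMIs that a count of 0 allows in a naive kidney. Gbp10 was likewise at 0 in naive kidneys and at least 97.8-fold and 65.3-fold higher, though Gbp genes share sequence and their split is uncertain.

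Promoters of 4 genes that rose and held a motif match are shown, chosen for the match. Sequences are from RefSeq (GRCm38.p6), from 250 bases before to 50 after the start, with matches in capitals to the interferon-stimulated response element (ISRE, GAAANNGAAA) or the gamma-activated sequence (GAS, TTCNNNGAA), both searched on both strands. Of 42 genes in the interferon list, 30 had a promoter, and 16 of these (53.33%) held an ISRE and 11 (36.67%) a GAS, against 3.99% and 9.55% of all 27025 genes with a promoter. In the class I list an ISRE was held by 5 of 17 (29.41%) and a GAS by 1 (5.88%), and in the class II list each by 1 of 6 (16.67%). Tap1, Psmb9, H2-Aa, and H2-Q4, which also rose, held neither. Of the 18 apical carriers with a promoter none held either, and of 13 basolateral carriers with a promoter 1 (7.69%) held both. A missing match says only that these letters are not in this window. Igtp (chr11:58199306-58199605, plus strand) holds an ISRE 34 and a GAS 45 bases before the start. Gbp2 (chr3:142620413-142620712, plus strand) holds an ISRE 59 bases before the start. Irf1 (chr11:53769764-53770063, plus strand), a transcription factor of this response at 6.46 and 3.91 CPM in the naive pair, 142 and 126 CPM in the rejecting pair, and 78.1 and 73.4 CPM in the tolerized pair, holds a GAS 90 bases before the start of this transcript. B2m (chr2:122147437-122147736, plus strand) holds an ISRE 139 bases before it.
Igtp: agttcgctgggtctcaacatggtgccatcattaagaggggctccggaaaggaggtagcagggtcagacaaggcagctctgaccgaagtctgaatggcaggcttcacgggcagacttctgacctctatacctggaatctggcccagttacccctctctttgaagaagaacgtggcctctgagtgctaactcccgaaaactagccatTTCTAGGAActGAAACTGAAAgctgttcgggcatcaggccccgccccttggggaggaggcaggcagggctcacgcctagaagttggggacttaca
Gbp2: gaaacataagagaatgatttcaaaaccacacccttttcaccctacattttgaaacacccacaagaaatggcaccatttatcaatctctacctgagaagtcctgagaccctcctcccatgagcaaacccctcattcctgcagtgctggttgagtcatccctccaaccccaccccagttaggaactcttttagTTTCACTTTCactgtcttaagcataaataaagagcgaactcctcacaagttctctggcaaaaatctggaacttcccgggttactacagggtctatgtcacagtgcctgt
Irf1: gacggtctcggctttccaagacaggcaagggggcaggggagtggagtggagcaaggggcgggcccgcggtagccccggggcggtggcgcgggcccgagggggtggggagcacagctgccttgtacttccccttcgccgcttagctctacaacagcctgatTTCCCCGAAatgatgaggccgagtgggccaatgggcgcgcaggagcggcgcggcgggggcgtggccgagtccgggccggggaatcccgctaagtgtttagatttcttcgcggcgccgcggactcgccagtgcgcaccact
B2m: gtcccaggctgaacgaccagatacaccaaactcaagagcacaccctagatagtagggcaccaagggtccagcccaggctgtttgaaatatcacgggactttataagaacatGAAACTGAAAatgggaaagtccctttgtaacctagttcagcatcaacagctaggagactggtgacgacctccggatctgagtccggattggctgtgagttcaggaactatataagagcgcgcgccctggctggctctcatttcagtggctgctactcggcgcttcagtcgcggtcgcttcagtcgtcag

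**Figure D3:**
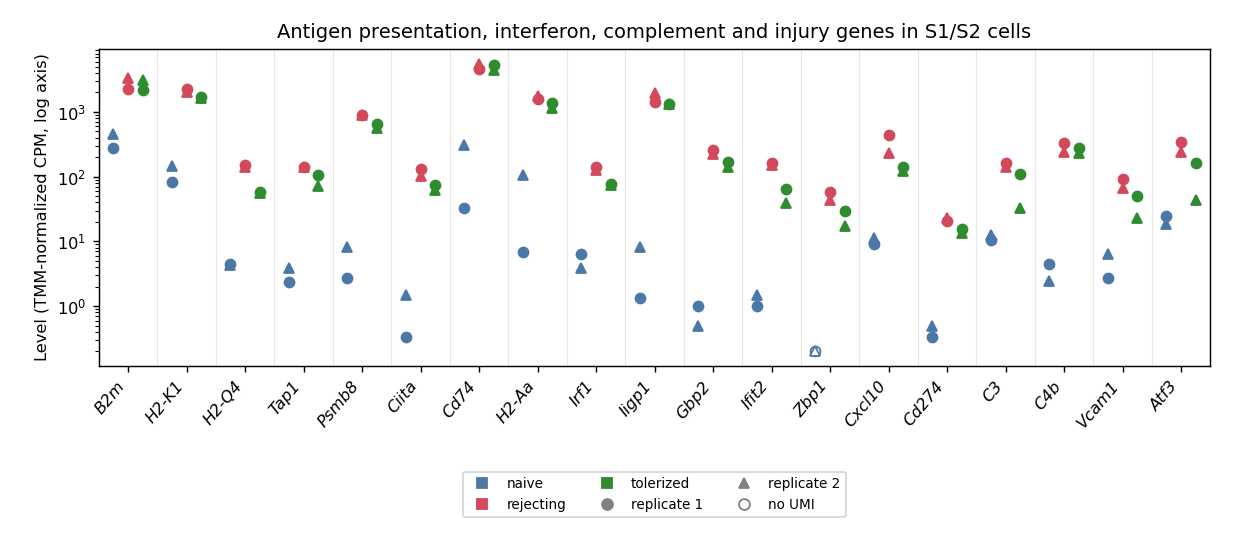
Levels of 19 antigen presentation, interferon, complement, and injury genes in S1/S2 cells, in TMM-normalized CPM on a log axis, with 1 point per kidney and open symbols at 0.2 for kidneys with no UMI. Rejecting and tolerized kidneys lie above naive ones for the MHC and interferon genes, and Ifit2, H2-Q4, and Atf3 are lower in tolerized than in rejecting kidneys.

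Leukocyte transcripts were present in the same sums and moved with the groups. All 13 T and NK cell genes summed to 0.680 and 11.7 CPM for naive, 155 and 22.3 CPM for rejecting, and 37.5 and 13.1 CPM for tolerized kidneys, with Nkg7 the most abundant. All 13 genes of macrophages and monocytes summed to 67.3 and 162 CPM for naive, 601 and 297 CPM for rejecting, and 197 and 153 CPM for tolerized kidneys, led by Plac8. The 7 B cell genes, led by Igkc, summed to 0.680 and 34.2 CPM for naive, 30.3 and 41.4 CPM for rejecting, and 5.93 and 73.5 CPM for tolerized kidneys. In naive kidneys 11 and 5 of the T and NK cell genes had no UMI. Ptprc itself was at 0 by the rule. A Ptprc UMI was found in 6 and 7 of the 1408 and 991 barcodes with 2 or more Slc5a2 and Slc5a12 UMIs for naive, 138 and 42 of 763 and 364 for rejecting, and 149 and 121 of 1303 and 1617 for tolerized kidneys.

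The level in S1/S2 cells was set beside that in Ptprc+ cells of the same transplanted kidney. For 9 leukocyte genes it was 0.186% to 6.46% of the level in Ptprc+ cells, highest in the first rejecting kidney. Plac8, which made up much of the macrophage and monocyte sum, was not among these 9 and was at 15.8% to 27.3%. For 6 class II genes it was 20.2% to 97.8%, for 8 class I genes 38.0% to 147%, and for 6 interferon genes 37.5% to 530%. The ratios for class I, class II, and interferon genes were therefore above those of all 9 leukocyte genes in each transplanted kidney. Ccl5 (0.609% to 7.47%) and Ccl8 (0.384% to 3.38%) lay with the leukocyte genes, and Cxcl10 (43.3% to 85.2%) lay apart from them. How far RNA from other cells entered the single values was not tested beyond these ratios.

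**Figure D4:**
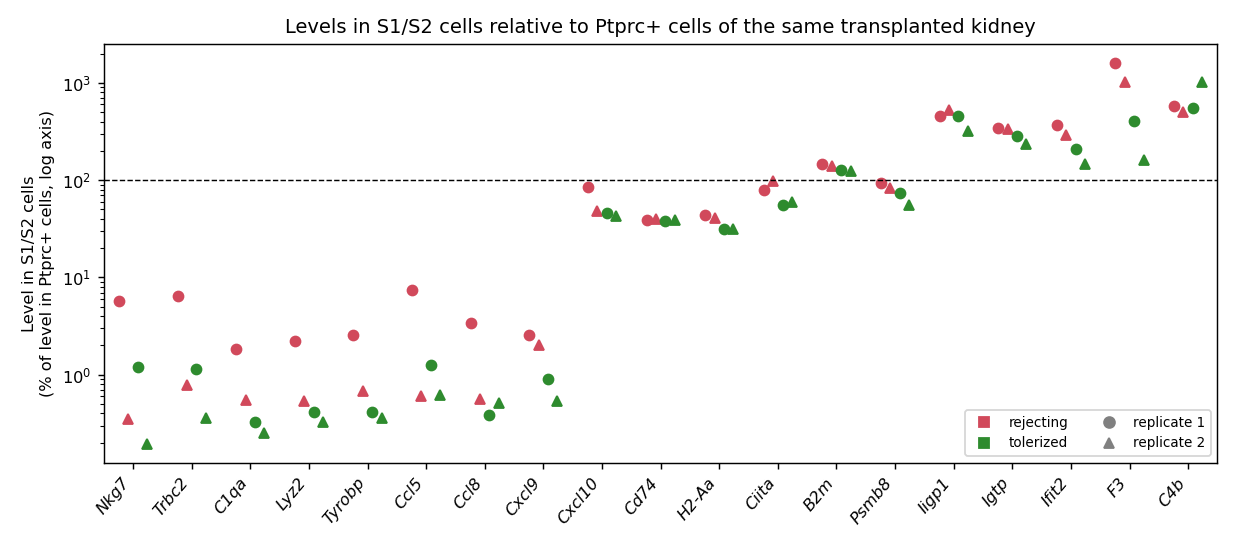
Level of 19 genes in S1/S2 cells as a percentage of the level in Ptprc+ cells of the same transplanted kidney, on a log axis, with 1 point per kidney and the dashed line at equal levels. Leukocyte genes (C1qa among them) and Ccl5, Ccl8, and Cxcl9 lie below 10%, and MHC genes, interferon genes, and C4b lie mostly above 20%.

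Of 10 complement genes tested, 6 rose and 1 fell in rejecting kidneys, and 5 rose and 1 fell in tolerized kidneys, with medians of 2.40 and 1.51. C4b, of the classical and lectin paths, was at 4.42 and 2.44 CPM in the naive pair, 327 and 239 CPM in the rejecting pair, and 278 and 229 CPM in the tolerized pair and rose by 6.30 ± 0.32 on the log2 scale (SE, edgeR FDR 4.49e-07) and 6.14 ± 0.32 on the log2 scale (SE, edgeR FDR 7.11e-07). Its level in S1/S2 cells was 500% to 1020% of that in Ptprc+ cells. C3, the central component, was at 10.5 and 12.7 CPM in the naive pair, 163 and 142 CPM in the rejecting pair, and 111 and 32.4 CPM in the tolerized pair and rose by 3.73 and 2.63 on the log2 scale, with the second tolerized kidney the lowest of the transplanted ones. With the second naive kidney left out the edgeR FDR of C3 in tolerized kidneys was 0.0527, and without the first it was 0.0621. Cfb, the alternative path protease, was at 56.4 and 46.9 CPM in the naive pair, 15.02 and 32.6 CPM in the rejecting pair, and 22.7 and 23.05 CPM in the tolerized pair and was the member that fell, by 1.17 and 1.18.

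Of 20 chemokine and cytokine genes tested, 9 rose and 1 fell in rejecting kidneys and 6 rose and 1 fell in tolerized kidneys. Cxcl10, a ligand of the T cell receptor CXCR3, was at 9.17 and 11.2 CPM in the naive pair, 435 and 233 CPM in the rejecting pair, and 140.2 and 122 CPM in the tolerized pair and rose by 5.05 ± 0.34 on the log2 scale (SE, edgeR FDR 2.87e-06) and 3.70 ± 0.33 on the log2 scale (SE, edgeR FDR 2.49e-05). Cxcl9, another ligand of that receptor, had no UMI in naive kidneys and was at 46.0 and 29.8 CPM in rejecting and 10.8 and 5.22 CPM in tolerized kidneys, at least 25.9-fold and 5.48-fold higher. In Ptprc+ cells Cxcl9 was far more abundant, and S1/S2 cells held 0.538% to 2.57% of that level. Tnfsf10 (TRAIL), a death ligand, was at 0.680 and 0.977 CPM in the naive pair, 82.3 and 66.8 CPM in the rejecting pair, and 56.4 and 49.7 CPM in the tolerized pair and rose by 6.50 and 6.01 on the log2 scale. Cxcl16, at 101 and 80.6 CPM in the naive pair, 252 and 242 CPM in the rejecting pair, and 232 and 242 CPM in the tolerized pair, rose by 1.44 and 1.38, and Vegfa, at 52.0 and 49.4 CPM in the naive pair, 43.2 and 63.2 CPM in the rejecting pair, and 49.6 and 57.4 CPM in the tolerized pair, did not pass.

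Injury genes separated the transplanted groups in direction but mostly not by the test. In the list injury and repair, 15 of 29 rose and 2 fell in rejecting kidneys (median 1.29), and 5 rose and 3 fell in tolerized kidneys (median 0.39). Against rejecting kidneys, 26 of 29 were lower in tolerized kidneys with a median of -0.89, 1 passed, and the rest did not. The rule capped Havcr1, so cells with more Havcr1 UMIs are not in these values. Such cells without a Ptprc UMI numbered 0 and 0 for naive, 46 and 63 for rejecting, and 223 and 32 for tolerized kidneys. The part of this cap in the injury values was not tested. Atf3, a stress-induced factor, was at 24.8 and 18.6 CPM in the naive pair, 346 and 237 CPM in the rejecting pair, and 161 and 43.3 CPM in the tolerized pair and rose by 3.73 ± 0.53 on the log2 scale (SE, edgeR FDR 0.000504) and 2.21 ± 0.51 on the log2 scale (SE, edgeR FDR 0.0102), with a difference between transplanted groups of -1.52 ± 0.45 on the log2 scale (SE, edgeR FDR 0.229). Vcam1, an adhesion molecule of failed repair, was at 2.72 and 6.35 CPM in the naive pair, 91.3 and 67.6 CPM in the rejecting pair, and 49.7 and 22.7 CPM in the tolerized pair and rose by 4.22 ± 0.48 on the log2 scale (SE, edgeR FDR 0.000114) and 3.07 ± 0.48 on the log2 scale (SE, edgeR FDR 0.00121). Tnfrsf12a, the receptor of TWEAK, was at 19.4 and 18.6 CPM in the naive pair, 103 and 113 CPM in the rejecting pair, and 45.0 and 22.9 CPM in the tolerized pair and rose by 2.50 ± 0.31 on the log2 scale (SE, edgeR FDR 0.000211) in rejecting kidneys. Spp1, osteopontin, was at 1145 and 1121 CPM in the naive pair, 1765 and 3219 CPM in the rejecting pair, and 2442 and 2617 CPM in the tolerized pair and rose in both. The rises in rejecting kidneys were 9 without the second naive kidney, and in tolerized kidneys 1 without either naive kidney and 10 without the second tolerized one. For Atf3 in tolerized kidneys the edgeR FDR was 0.072 and 0.12 without the first and the second naive kidney. For Spp1 in rejecting kidneys the same omissions gave 0.0777 and 0.0934, and for Spp1 in tolerized kidneys 0.0877 and 0.116.

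Immediate early and heat shock genes followed the same order. In the list immediate early and heat shock, 8 of 23 rose and 1 fell in rejecting kidneys (median 0.71), and 1 rose and 2 fell in tolerized kidneys (median 0.05). Against rejecting kidneys, 22 of 23 were lower in tolerized kidneys (median -0.73), and none passed. Jun, of the AP-1 factor, was at 548 and 343 CPM in the naive pair, 1456 and 960.2 CPM in the rejecting pair, and 923 and 372 CPM in the tolerized pair and rose by 1.44 ± 0.39 on the log2 scale (SE, edgeR FDR 0.0175) in rejecting kidneys. Hsp90aa1, a chaperone, was at 617 and 553 CPM in the naive pair, 1319.6 and 1004 CPM in the rejecting pair, and 639 and 416 CPM in the tolerized pair and rose by 0.99 ± 0.25 on the log2 scale (SE, edgeR FDR 0.0119), and Hsph1, a co-chaperone, was at 35.7 and 30.8 CPM in the naive pair, 105 and 57.3 CPM in the rejecting pair, and 37.6 and 37.6 CPM in the tolerized pair. Klf2, at 51.0 and 72.3 CPM in the naive pair, 37.4 and 23.5 CPM in the rejecting pair, and 29.0 and 22.1 CPM in the tolerized pair, fell in both transplanted groups. The 8 rises were 2 without the second naive kidney, 3 without the first rejecting kidney, 5 without the first naive kidney, and 13 without either tolerized kidney. Without the second naive kidney the edgeR FDR was 0.169 for Jun and 0.111 for Hsp90aa1. For Klf2 it was 0.148 in rejecting and 0.082 in tolerized kidneys, and 0.0965 in rejecting kidneys without the second of these. The FDR of Jun was 0.109 and that of Hsp90aa1 0.0647 without the first rejecting kidney, and that of Hsp90aa1 0.0643 without the first naive one.

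Tolerized and rejecting kidneys had the same strain, age, and gene list, and differed by the infusions of splenocytes and in the depths given above. Of the 6 genes called, 5 were lower in tolerized kidneys. Ifit2 (chr19:34550694-34576419), an interferon-induced RNA-binding protein, was at 1.02 and 1.47 CPM in the naive pair, 163 and 150.0 CPM in the rejecting pair, and 63.9 and 39.0 CPM in the tolerized pair, lower in tolerized kidneys by 1.61 ± 0.23 on the log2 scale (SE, edgeR FDR 0.0401). H2-Q4 (chr17:35379617-35385290), a class I gene, was at 4.42 and 4.40 CPM in the naive pair, 152 and 141 CPM in the rejecting pair, and 57.4 and 56.7 CPM in the tolerized pair, lower by 1.36 ± 0.17 on the log2 scale (SE, edgeR FDR 0.0337). F3 (chr3:121723537-121735048), tissue factor, which starts coagulation, was at 19.0 and 13.7 CPM in the naive pair, 30.8 and 48.1 CPM in the rejecting pair, and 10.9 and 10.1 CPM in the tolerized pair, lower by 1.89 ± 0.25 on the log2 scale (SE, edgeR FDR 0.0401). Its level in tolerized kidneys was below that in naive kidneys too, a difference of -0.66 ± 0.28 on the log2 scale (SE, edgeR FDR 0.112). Myc (chr15:61985391-61990374), a factor of growth, was at 4.08 and 4.40 CPM in the naive pair, 18.1 and 16.3 CPM in the rejecting pair, and 4.67 and 3.32 CPM in the tolerized pair, lower by 2.12 ± 0.30 on the log2 scale (SE, edgeR FDR 0.0401). Gm4070 (chr7:105895139-105953967) was at 0 and 0 CPM in the naive pair, 63.7 and 51.3 CPM in the rejecting pair, and 19.7 and 13.1 CPM in the tolerized pair, lower by 1.82 ± 0.25 on the log2 scale (SE, edgeR FDR 0.0401).

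Both kidneys of a group lay on 1 side for each of these 5 genes, and 20.1% of all genes tested were lower in both tolerized than in both rejecting kidneys. In any transplanted kidney the cell with the most UMIs held at most 10.7% of those of F3 and 29.3% of those of Myc. All 6 calls were lost without either naive kidney, without the first rejecting kidney, and without the second tolerized kidney, with the same direction. In a fit of rejecting and tolerized kidneys alone, edgeR called 0 genes, and the FDR of these 5 genes was 0.129 to 0.188. With the marked doublets left out, the edgeR FDR of Myc was 0.118. With each cell thinned to 1000 UMIs, 34 of 3657 genes tested passed, and 0 of the 6 calls were among them. The stricter rule gave 6 genes, 4 of them among these calls. The list interferon response had 40 of 41 members lower in tolerized kidneys (median -0.56), of which 1 passed and 24 had an unadjusted p under 0.05, against 5.58% of all genes. The summed genes of macrophages and monocytes, given above, were lower in both tolerized than in both rejecting kidneys, and those of T and NK cells and of B cells overlapped between the groups. Gene by gene, all 10 macrophage and monocyte genes tested were lower in tolerized kidneys (median -1.91). So were all 8 T and NK cell genes tested (median -2.06), while all 3 B cell genes tested were higher (median 0.38). None of them passed, and their part in the interferon values was not tested.

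Ccl2, a ligand for monocytes, was the gene higher in tolerized kidneys, at 0 and 0.489 CPM in the naive pair, 1.19 and 0.398 CPM in the rejecting pair, and 15.7 and 13.2 CPM in the tolerized pair, by 3.996 ± 0.50 on the log2 scale (SE, edgeR FDR 0.0337). This rested on 1 cell per kidney. In the first tolerized kidney 132 of 138 Ccl2 UMIs (95.7%) were in 1 of 5 positive cells, and in the second 157 of 159 (98.7%) were in 1 of 3. The next genes in the order of p did not pass. Defb1, a defensin, was at 86.6 and 81.1 CPM in the naive pair, 10.5 and 4.77 CPM in the rejecting pair, and 26.1 and 42.4 CPM in the tolerized pair, a difference of 2.09 ± 0.34 on the log2 scale (SE, edgeR FDR 0.0538), and Klk1, tissue kallikrein, was at 113 and 225 CPM in the naive pair, 9.54 and 11.9 CPM in the rejecting pair, and 36.7 and 89.5 CPM in the tolerized pair, a difference of 2.58 ± 0.46 on the log2 scale (SE, edgeR FDR 0.0823). Both are known from the distal nephron. The 7 marker genes of the thick ascending limb summed to 449 and 450 CPM for naive, 291 and 393 CPM for rejecting, and 391 and 424 CPM for tolerized kidneys, mostly Cldn10, and Slc12a1 was at 0 by the rule. Of 5 of these genes tested, 4 fell in rejecting against naive kidneys (median -2.20 on the log2 scale), and all 5 were higher in tolerized than in rejecting kidneys (median 1.53), though none passed. The falls of Umod, Kcnj1, and Egf lost their calls without the second naive kidney, at -1.21, -2.18, and -2.35 on the log2 scale. The 9 marker genes of the collecting duct, led by Aqp2, summed to 360 and 235 CPM for naive, 48.6 and 63.2 CPM for rejecting, and 75.5 and 182 CPM for tolerized kidneys. Of 7 tested, 4 fell in rejecting against naive kidneys (median -2.66), and 5 were higher in tolerized than in rejecting kidneys (median 0.96), where none passed. The 6 genes of the distal convoluted tubule summed to 187 and 199.9 CPM for naive, 117 and 98.2 CPM for rejecting, and 94.6 and 167 CPM for tolerized kidneys, mostly Wnk1, and 3 of 5 tested fell and 1 rose in rejecting against naive kidneys, while 3 were higher in tolerized than in rejecting kidneys (median 1.82). The 8 endothelial genes, led by Emcn, summed to 49.3 and 77.7 CPM for naive, 25.04 and 3.98 CPM for rejecting, and 35.9 and 52.1 CPM for tolerized kidneys. Of 6 tested, 4 fell in rejecting against naive kidneys, and all 6 were higher in tolerized than in rejecting kidneys (median 1.59). The falls of Cdh5, Egfl7, Emcn, and Pecam1 lost their calls without the second naive kidney, at -3.19, -1.62, -1.63, and -2.53 on the log2 scale. No member of these lists passed between the transplanted groups. The part of these cell types in the values of Defb1 and Klk1 was not tested. Rpl41 and Rps28, ribosomal proteins with transcripts of 582 and 437 bases, were at 3478 and 4311 CPM in the naive pair, 716 and 746 CPM in the rejecting pair, and 2016 and 1742 CPM in the tolerized pair and 1474 and 1509 CPM in the naive pair, 105 and 191 CPM in the rejecting pair, and 515 and 407 CPM in the tolerized pair, with differences of 1.36 and 1.65 on the log2 scale that did not pass. H2-Q10, at 0 and 0.977 CPM in the naive pair, 45.1 and 26.6 CPM in the rejecting pair, and 8.21 and 9.78 CPM in the tolerized pair, was lower by a difference that did not pass.

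Among genes that separated transplanted from naive kidneys most, several were at 0 on 1 side. F830016B08Rik, an interferon-induced GTPase, and Zbp1, a sensor of Z-form nucleic acid, had no UMI in naive kidneys. F830016B08Rik was at 73.0 and 148 CPM in rejecting and 43.8 and 58.1 CPM in tolerized kidneys, at least 75.5-fold and 34.8-fold higher. Zbp1 was at 57.7 and 44.2 CPM and 29.3 and 17.5 CPM, at least 34.7-fold higher in rejecting kidneys. Nkx6-2, a homeobox factor, and Serpina3b, a serpin, were likewise at 0 in naive kidneys and reached 27.4 and 21.6 CPM and 30.6 and 26.4 CPM in tolerized kidneys. On the other side, Car3 (carbonic anhydrase 3) was at 281 and 366 CPM in naive kidneys and at 0 in both rejecting kidneys, at least 271-fold lower. Apob, the apolipoprotein B gene, was at 182 and 78.2 CPM in naive and at 0 in rejecting kidneys, at least 109-fold lower. Gm49342 was at 72.0 and 71.3 CPM in naive and at 0 in all transplanted kidneys, and 4930481A15Rik, an antisense gene whose UMIs may belong to the gene on the other strand, at 24.8 and 27.4 CPM and 0. Fdx1l, a mitochondrial ferredoxin, was at 50.3 and 55.7 CPM in the naive pair, 1.67 and 0.398 CPM in the rejecting pair, and 0 and 0.166 CPM in the tolerized pair, and Apoa2, an apolipoprotein, was at 25.8 and 22.5 CPM in the naive pair, 0 and 0.398 CPM in the rejecting pair, and 0.684 and 1.08 CPM in the tolerized pair.

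The last comparison asked whether the change from rejecting to tolerized kidneys differed between S1/S2 and S3 cells, tested as an interaction with the kidney as a block. Of 11653 genes, 8 passed (0.0687%), all with a higher tolerized-minus-rejecting difference in S1/S2 than in S3 cells, and 676 (5.80%) had an unadjusted p under 0.05. Acta2, Tagln, Myh11, and Rgs5 are genes of smooth muscle and pericytes, and each was highest in S3 cells of the second rejecting kidney. Acta2, for example, was at 65.3 CPM in those S3 cells against 1.59, 7.22, 1.32, 0.471, and 0.976 CPM in S3 cells of the other kidneys in replicate order. Without the second rejecting kidney 2 genes passed, and without the first tolerized kidney 195 did. For Slc34a1, Slc6a19, Cd74, and Ifit2, chosen after their values were seen, the FDR of the interaction by edgeR was 0.932, 0.928, 0.975, and 0.894, which does not show that the segments were alike. F3 was at 28.6 and 45.9 CPM in S1/S2 cells of rejecting kidneys and 10.6 and 9.66 CPM in tolerized ones on the scale of that fit, and at 23.3 and 32.7 CPM and 17.6 and 40.0 CPM in S3 cells, an interaction of -1.82 ± 0.33 on the log2 scale (SE, edgeR FDR 0.0566) that did not pass.

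**Figure D5:**
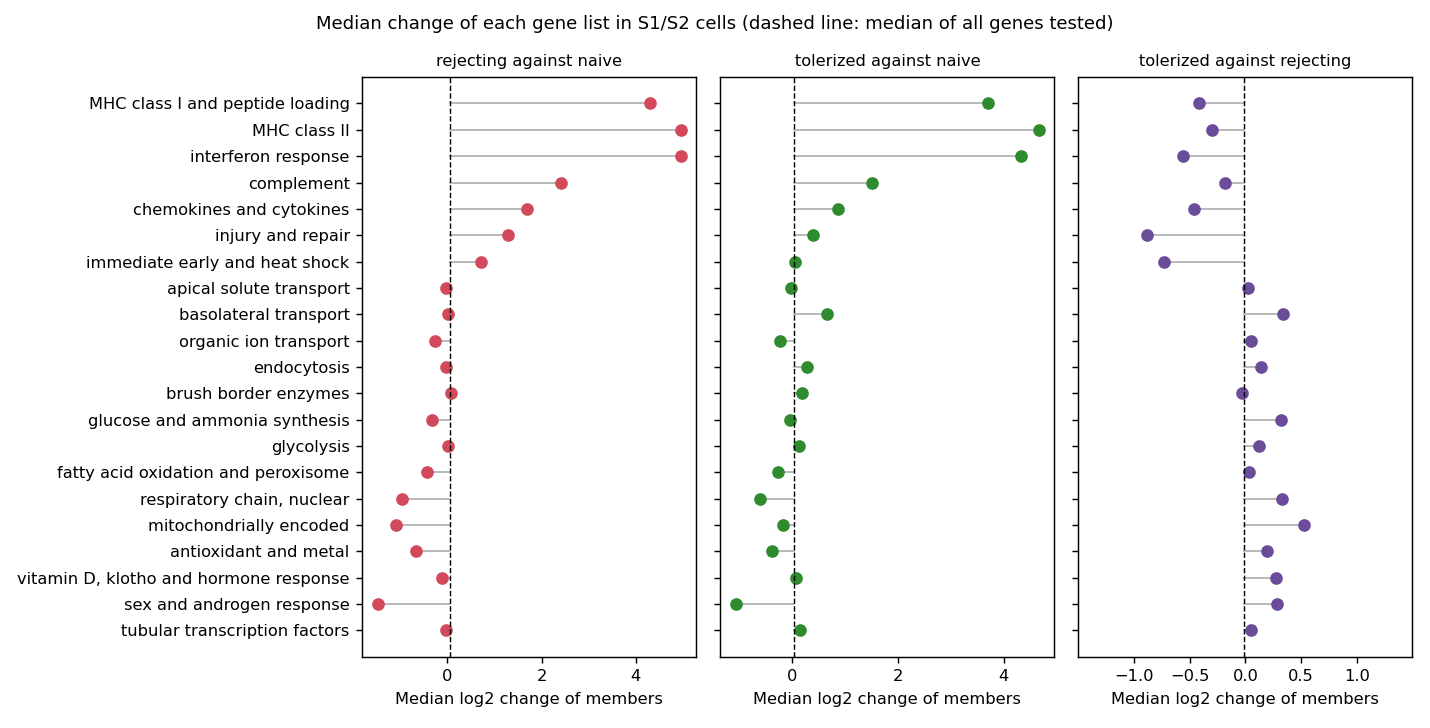
Median log2 change of the members of 21 gene lists in S1/S2 cells for rejecting against naive, tolerized against naive, and tolerized against rejecting kidneys, with the median of all genes tested as a dashed line. Genes at 0 in naive kidneys enter with their fitted value. MHC class II and interferon lists are the highest against naive kidneys, the sex and androgen list is the lowest in both, and injury and immediate early lists are the lowest in tolerized against rejecting kidneys.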

How the data were processed

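Cell suspensions of 6 kidneys were barcoded on the 10x Genomics platform, and the authors' Cell Ranger processing aligned reads to mm10 and counted UMIs. The deposited values are raw UMI counts per gene and barcode, 1 matrix per kidney. Values in each matrix were whole numbers. The total was 41562534 and 34874702 UMIs for naive, 56837038 and 48111410 for rejecting, and 96803926 and 94316013 for tolerized kidneys, and a level near 3 UMIs in a kidney (0.249 to 1.47 CPM) cannot be told from 0. Intervals of counts cover counting error only.

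Kept barcodes and S1/S2 cells were chosen by the rule given above. S3 cells had at least 2 UMIs of Slc7a13, Slc22a7, and Slc22a30 and the other limits. UMIs were summed per kidney, and 10593 of the genes shared by all matrices passed filterByExpr. edgeR 4.0.16 (TMM, quasi-likelihood, all 6 kidneys, R 4.3.3, limma 3.58.1) compared the groups, with Benjamini-Hochberg adjustment over all genes tested at 0.05. The 9 genes of the rule were not tested. The mitochondrially encoded genes, whose joint share the rule capped, were in the fit, and no test of them is given. The interaction fit had kidney as a block. Shares were compared with two-sided exact permutation tests. Scripts were tested on simulated data. Cells were handled in scanpy 1.11.5 (with Scrublet, highest scores up to 0.8% per 1000 barcodes), and scipy 1.17.1, pandas 2.3.3, numpy 2.4.6, matplotlib 3.10.9, and Python 3.11.15 served the rest. Gene coordinates are those of GRCm38 in GENCODE M21, and transcript length is that of the longest coding transcript.

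Genes named were, per comparison, up to 5 in each direction with the largest log2 change that passed without overlap and with at least 20 CPM in the higher group, filled by smallest p where fewer passed, and per list the 3 most abundant and up to 4 with the smallest p. Other members named were chosen after their values were seen. Cells, lists, and tests were chosen with earlier results of these data known. Alternatives were DESeq2 1.42.0, DESeq2 size factors, no filter on low counts, a replicate block, mitochondrial genes removed, at most 20% mitochondrial UMIs, at least 1000 UMIs, doublets left out, at least 3 UMIs of Slc5a2 and Slc5a12 (stricter rule), thinning to 1000 UMIs, cells with leukocyte UMIs left out, rejecting and tolerized kidneys alone, and each kidney left out.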

Additional observations from a re-analysis of the deposited data

Results flagged for a closer look

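All 8 results listed here are interactions, in which the change from rejecting to tolerized kidneys was not the same in S1/S2 and in S3 cells by edgeR's test. Acta2 (7.87 on the log2 scale, S1/S2 minus S3), Tagln (7.70), Myh11 (9.44), Rgs5 (8.89), and Mgp (5.15) were highest in S3 cells of the second rejecting kidney, at 65.3, 52.3, 19.2, 16.1, and 53.9 CPM, and none passed without that kidney. Fabp4 (4.06) and S100a6 (1.63) were highest in S3 cells of the first rejecting kidney, at 59.1 and 99.6 CPM, and neither passed without it. Ccl2 (8.08) was set by 1 S1/S2 cell in each tolerized kidney, as described above. No cause was tested.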

How the results depend on the processing

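Between tolerized and rejecting kidneys, 6 genes passed, and the number was 100 with DESeq2, 476 with no filter on low counts, 92 with a replicate block, 13 with mitochondrial genes removed, 40 with at most 20% mitochondrial UMIs, 34 with cells thinned to 1000 UMIs, 0 with rejecting and tolerized kidneys alone (1073 at an unadjusted p under 0.05), and 0 to 193 with 1 kidney left out. DESeq2 called 50 of its genes higher and no filter 212. Of the 34 genes with thinned cells, 0 were among the 6. Rejecting against naive kidneys gave 725 genes when thinned, 258 with leukocyte-positive cells left out, and 1629 to 3330 with 1 kidney left out. Tolerized against naive kidneys gave 691, 1034, and 931 to 2735. Thinning left 3657 genes to test, and leaving out leukocyte-positive cells left 1 and 23 cells in the rejecting kidneys, so that this last setting says little there. The interaction gave 2 genes with DESeq2, 150 with no filter, 15 with at most 20% mitochondrial UMIs, 13 with the stricter rule, and 2 to 195 with 1 kidney left out. Differences in the share of S1/S2 cells, in percentage points, were 2.96 (20% limit) and 3.13 (thinned) for tolerized minus rejecting kidneys, with 4.34 to 8.45 when 1 kidney was left out. For rejecting minus naive kidneys they were -4.97 (20% limit), -1.54 (stricter rule), and -2.43 (thinned), with -6.42 to -5.47. For tolerized minus naive kidneys the value was 3.37 under the stricter rule, -2.01 at the 20% limit, and -1.61 to 2.50 with 1 kidney left out. With leukocyte-positive cells left out, 7 calls in rejecting against naive kidneys changed sign or went to 0: Fgfr1 (1.36), Folr1 (-0.10), Hsp90ab1 (-0.084), Lamp1 (-0.066), Nkx6-2 (0.0), Pcx (-0.30), and Ppara (-0.33). At the 20% limit Slc47a1 did so in rejecting (0.14) and tolerized (0.11) against naive kidneys. Of the single-gene results, 4141 kept their direction and their side of the FDR, 527 lost the call, 37 gained it, and 9 reversed. The causes were not tested.

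The labels do not say whether a replicate number marks 1 of the study's 2 experiments. Deviations of same-numbered kidneys from their group means correlated by 0.0453 between naive and rejecting, -0.185 between naive and tolerized, and 0.110 between rejecting and tolerized kidneys over 2409 genes. The replicate block gave 3302 genes in rejecting and 2519 in tolerized against naive kidneys beside the 92 above. A block with crossed numbers, added after the data were seen, gave 2597 genes for tolerized against naive kidneys. Depth limits genes near the level of 3 UMIs in a kidney.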
